A study of Mus musculus with 68 samples.

Results

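The genes described here are 100 genes whose mRNA level in cumulus cell-derived somatic cell nuclear transfer (SCNT) embryos was higher at 14 h post activation (14 hpa) and in the early 2-cell embryo (E2C) than both before, at 6 hpa, and after, in the 4-cell embryo (4C). They were chosen by a rule on the measured values. Transcript abundances in TPM, a unit scaled for transcript length and library total, were averaged over the libraries of each stage, the smaller of the 14 hpa and E2C means had to reach 20 TPM, and genes were ranked by log2((that mean + 1)/(larger of the 6 hpa and 4C means + 1)). Of 24421 reference genes in every table, 2758 reached 20 TPM at both stages, and the 100 with the highest score are the peak genes. The 6 hpa, 14 hpa, E2C and 4C libraries of all replicates were therefore used in the choice, and the members' values there are given as a description. Where calls between these stages are given for members, the rule favored them and no support is read from them.

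RNA was copied by Smart-seq2, which captures polyadenylated RNA, from 10 blastomeres per reaction. There were 3 libraries of cumulus cells (CCs, the untreated nuclear donors), 5 libraries of 4C SCNT embryos and 6 at each of 6 hpa, 14 hpa, E2C, the late 2-cell stage (L2C), the 8-cell stage (8C), morula and, from blastocysts, the inner cell mass, ICM, and the trophectoderm, TE. SCNT embryos were made by injecting cumulus nuclei into enucleated MII oocytes of BDF1 mice and activating them with strontium chloride and cytochalasin B, and all of them are labelled untreated. A further 12 libraries, 2 per group, were ICM and TE of fertilized C57BL/6j embryos injected at the zygote stage with a morpholino (MO), an antisense oligonucleotide, against Max or Mcrs1, or belonging to the control group, labelled control and untreated, for which the study's methods give a random control MO. For these libraries the study gives lower concentrations of the Max and Mcrs1 MOs than of the control MO, so the dose was not matched. Nothing in the labels says that libraries of a group came from separate collections, so p-values measure the spread between these libraries. TPM is relative to the library total, so a rise of a gene's RNA and a loss of other RNA cannot be told apart. Nor can a change in RNA per cell and a change in the mix of cells in a reaction. The growing oocyte stores mRNA that is translated only after its poly(A) tail is lengthened in the cytoplasm, and the mouse embryo starts to transcribe its own genome weakly late in the 1-cell stage, before the main wave in the late 2-cell embryo. Because poly(A) RNA was captured, a longer tail on a stored mRNA and a new transcript both raise the measured TPM, and these cannot be told apart here.

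The scores ran from 1.10 (Hist2h2aa1) to 2.37 (A730082K24Rik), with a median of 1.39, a 2.61-fold higher TPM + 1 at the lower of the peak stages than at the higher of the flanking stages. The last genes inside the list were Nhej1 (1.11), 1110012L19Rik (1.11) and Hist2h2aa1 (1.10), and the first outside were Hist2h2aa2 (1.10), Ybx3 (1.10) and Memo1 (1.09), so the list has no natural edge. Of the 100 genes, 97 matched the GENCODE vM21 annotation, of which 87 are protein-coding, 3 antisense, 2 lincRNA, 2 processed transcripts and 3 pseudogenes, and Gm4566, Gm17830 and AA536875 had no match. Some members share sequence or position and are not separate observations. Hist2h3c1 and Hist2h3c2 overlap and had a correlation of 1 over the 68 libraries, as did Gm6644 and Akr1b3. Hist2h2aa1 overlaps the former pair, and Klhdc3 overlaps Mea1.

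The median member held 17.1 TPM at 6 hpa, 65.1 at 14 hpa, 62.1 at E2C, 30.7 at L2C, 6.02 at 4C and 2.04 at 8C. Over all 2758 genes that reached 20 TPM at both peak stages the same medians were 65.3, 63.3, 60.7, 58.95, 35.2 and 33.0. The L2C level lay between E2C and 4C for 93 of the 100 genes and was below E2C for 98. The rule did not use L2C but set E2C above 4C, so this order was largely built in. It was not counted over the 2758 genes. In 43 members all 12 libraries of 14 hpa and E2C were above all 11 libraries of 6 hpa and 4C, against 64 of the 2758 genes (2.32%), a contrast on which the members were chosen. The level was highest of all SCNT stages at 14 hpa for 54 members, at E2C for 36, at morula for 4, in TE for 3, in ICM for 2 and at L2C for 1. At 8C 61 members reached 1 TPM, against 85.7% of the 2758 genes, and 8 members were listed at 0 in every library. In CCs 62 members reached 1 TPM, against 85% of the 2758 genes, and 20 members were listed at 0 in every library.

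**Figure D1:**
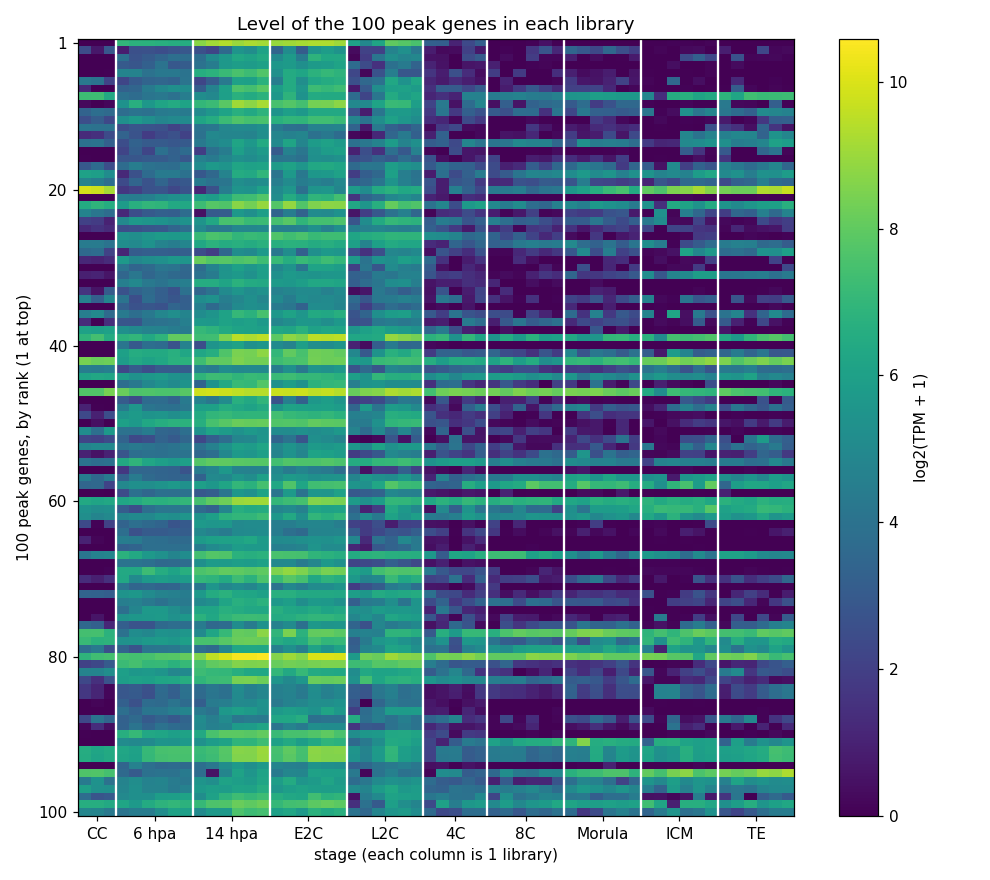
Each row is 1 of the 100 peak genes, ordered by rank with rank 1 at the top, and each column is 1 library of CCs or of an SCNT stage, colored by log2(TPM + 1). The band at 14 hpa and E2C is what the rule selected, and 22 rows stay below 1 TPM on average at 8C, morula, ICM and TE.

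The summed TPM of the 100 genes gave the pattern per library. At 6 hpa the 6 sums ran from 3269 to 4163 (median 3655), at 14 hpa from 7331 to 16527 (median 12774), and at E2C from 8700 to 13415 (median 12130). At L2C the sums ran from 2635 to 7656 (median 5328), and at 4C they were 1267, 1931, 1703, 2232 and 2029. The sums at the peak stages did not overlap those at 6 hpa or 4C, a separation on which the genes were chosen. Of the L2C libraries, 1 reached above the lowest at 14 hpa. The spread at 14 hpa followed the replicate numbers. Replicates 1 to 3 averaged 9296 ± 2000 (SD, n = 3) and replicates 4 to 6 averaged 15356 ± 1154 (SD, n = 3), with no overlap. At E2C the means were 9679 ± 1287 and 13279 ± 147, and at L2C 3320 ± 879 and 6905 ± 676 (SD, n = 3 each). The libraries differ in the same order in another respect. Reference genes hold only a part of each table's TPM, the rest being loci assembled from the library, and this share was 53.8% to 63.8% in replicates 1 to 3 and 65.2% to 69.2% in replicates 4 to 6 at 14 hpa, and on average 44.5% and 59.8% at L2C, where replicate 1 had the lowest share (30.4%). The labels give no batch for these numbers, and the part of the reference share in the summed levels was not tested. Aligned sequence was 1.90 to 5.17 gigabases per SCNT library, and since the tables hold no counts the depth of a gene in reads is unknown.

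**Figure D2:**
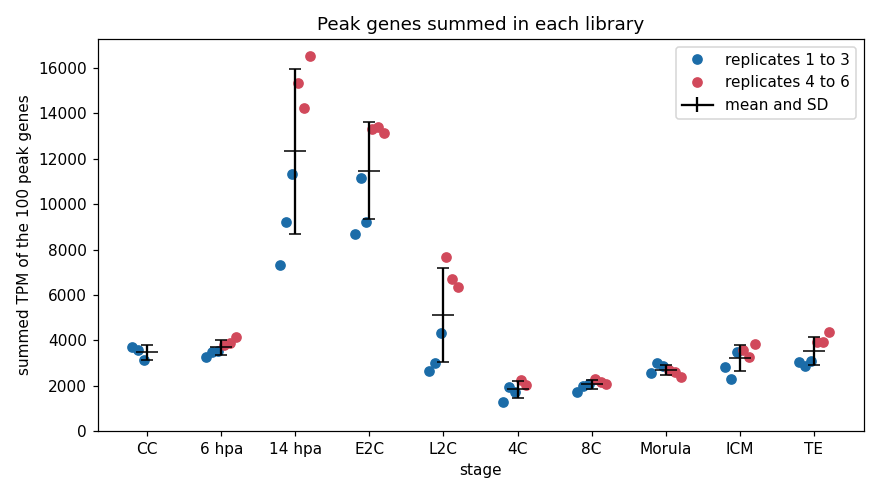
Summed TPM of the 100 peak genes (y axis) in each library by stage (x axis), with replicates 1 to 3 and 4 to 6 in different colors and the mean and SD of each stage as bars. The 14 hpa and E2C libraries lie between 7331 and 16527, and replicates 4 to 6 lie above replicates 1 to 3 at 14 hpa.

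Because all replicates chose the members, their own peak could not be tested. Instead 100 genes were chosen with the same rule on replicates 1 to 3 alone and tested in replicates 4 to 6, and the reverse. Of these genes 68 and 67 are members, and the counts are of the chosen genes, not of the list of members. A gene had a peak call where it passed limma's test (adjusted p under 0.05 and at least 2-fold) in each of 14 hpa and E2C against each of 6 hpa and 4C. The chosen genes had to reach 20 TPM at both peak stages, while all tested genes needed a mean of only 1 TPM. The shares of all tested genes are therefore not like for like, and those of genes at 20 TPM were not computed. Among the genes chosen on replicates 1 to 3, 63 of 100 had a peak call in replicates 4 to 6, where 3.18% of all tested genes did, and 95 were higher in all 4 contrasts without regard to the test, against 21.2% of all tested genes. In the reverse direction 7 of 100 had a peak call in replicates 1 to 3, where 0.276% of all genes did, and 84 were higher in all 4 contrasts, against 11.6% of all genes. That count fell to 0 or 1 when any 1 of replicates 1 to 3 was left out and was 14 after quantile normalization. Both choices shared 43 genes, 42 of them members. The median score of the members was 1.09 in replicates 1 to 3 and 1.62 in replicates 4 to 6, and of the 73 members that reached 20 TPM in both sets 57 scored higher in replicates 4 to 6. In replicates 1 to 3, 24 members did not reach 20 TPM at one or both peak stages, against 3 in replicates 4 to 6. Csrnp2 had the lowest score in replicates 1 to 3 (-0.60) and Zfp932 the lowest in replicates 4 to 6 (0.28).

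**Figure D3:**
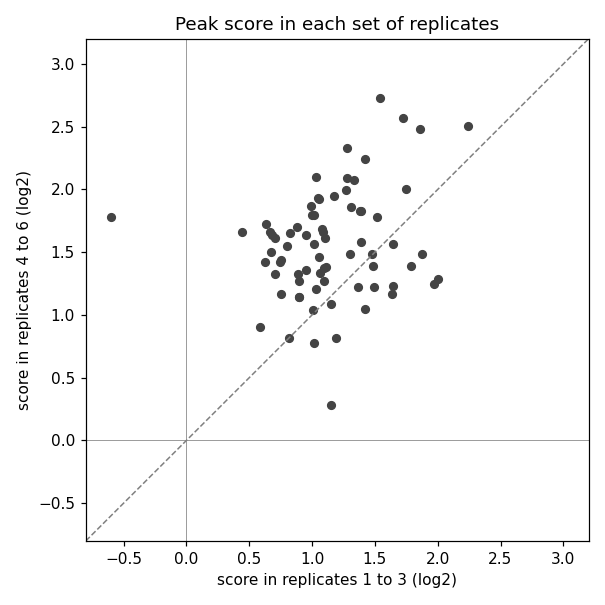
Score of each of the 73 peak genes that reached 20 TPM at both peak stages in both sets, in replicates 1 to 3 (x axis, log2) against replicates 4 to 6 (y axis, log2), with the line of equal scores dashed. Of these points 57 lie above the line, and 1 gene, Csrnp2, lies below 0 on the x axis.

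The gene ranked first was A730082K24Rik, a long intergenic noncoding RNA on the plus strand of chromosome 7 (mm10, 114948650 to 114983967). Its 6 hpa libraries ran from 93.2 to 123 TPM (median 104), its 14 hpa libraries from 411 to 655 (median 555), and its E2C libraries from 500 to 615 (median 567). All peak libraries were thus above all earlier ones, in both sets of replicates. At L2C it ran from 29.7 to 253 TPM (median 129), at 4C it was 8.37, 7.91, 1.10, 4.09 and 8.14, and at 8C it was at most 0.437. CCs held at most 0.0194 TPM. From L2C to 8C it had the largest fall among the members, with a log2(TPM + 1) change of -6.64 (SE 0.32).

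Mapk3, which encodes the kinase ERK1, ran from 3.57 to 15.7 TPM at 6 hpa, from 3.63 to 108 at 14 hpa (median 41.0) and from 21.5 to 102 at E2C (median 81.6). Replicate 1 at 14 hpa (3.63 TPM) was no higher than 6 hpa, so in this gene the groups overlapped. Cdk20, a cyclin-dependent kinase family member, averaged 23.1 ± 12.5 TPM at 6 hpa, 117 ± 97.4 at 14 hpa and 105 ± 48.1 at E2C (SD, n = 6) and was 2.39 ± 2.36 at 8C. Aven, an inhibitor of apoptosis, averaged 69.8 ± 22.8 TPM at 6 hpa, 344 ± 200 at 14 hpa and 277 ± 105 at E2C (SD, n = 6), and its 12 peak libraries (128 to 587) lay above those of 6 hpa (41.6 to 100). Derl3, of the endoplasmic reticulum degradation pathway, averaged 4.59 ± 1.95 TPM at 6 hpa, 27.7 ± 25.3 at 14 hpa and 32.1 ± 19.6 at E2C, with overlap between the stages (0.813 to 6.41 against 3.70 to 66.6). Speer5-ps1, a pseudogene whose relatives could share its reads, had a median of 17.8 TPM at 6 hpa, 148 at 14 hpa and 98.9 at E2C and of 5.70 at L2C.

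The other members among the first 20 are given as mean and SD over 6 libraries or as the range of the libraries. Car9, a carbonic anhydrase of the cell surface, averaged 10.5 ± 3.52 TPM at 6 hpa, 54.1 ± 27.9 at 14 hpa and 62.7 ± 34.2 at E2C. AW495222, an unnamed transcript, averaged 8.47 ± 3.5 TPM at 6 hpa, 43.9 ± 20.7 at 14 hpa and 53.2 ± 10.6 at E2C. Dnajc14, a chaperone with a J domain, averaged 16.9 ± 3.17 TPM at 6 hpa, 74.6 ± 31.1 at 14 hpa and 66.8 ± 17.8 at E2C. In Dnajc14 the 6 hpa libraries (12.8 to 20.6 TPM) lay below those of 14 hpa (33.3 to 114) and E2C (42.8 to 82.5). B4galt4, a galactosyltransferase, had 27.2 to 51.3 TPM at 6 hpa, below all 12 peak libraries (71.6 to 203), and at 8C it did not exceed 0.180. Asb8, with ankyrin repeats and a SOCS box, went from 4.69 to 9.15 TPM at 6 hpa to between 18.3 and 87.1 at the peak stages, again without overlap, and kept 20.8 ± 7.26 at 8C. Oas1f, of the oligoadenylate synthetase family, averaged 8.28 ± 4.31 TPM at 6 hpa, 32.1 ± 23.3 at 14 hpa and 34.6 ± 22.1 at E2C. Its near relatives could share its reads. Net1 averaged 6.97 ± 2.44 TPM at 6 hpa, 25.6 ± 9.89 at 14 hpa and 25.3 ± 5.19 at E2C, and 4930558C23Rik averaged 5.03 ± 2.36 TPM at 6 hpa, 26.8 ± 6.97 at 14 hpa and 20.6 ± 6.5 at E2C.

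Members with related roles were put side by side after their values were seen, so that no theme follows from them. Several act in membrane traffic. Stxbp6, a binder of SNARE proteins, had 3.204 to 5.83 TPM at 6 hpa, 15.5 to 37.3 at 14 hpa and 13.1 to 25.65 at E2C, and Rab3b, a GTPase of secretory vesicles, had 5.996 to 9.14 TPM at 6 hpa, 19.7 to 42.5 at 14 hpa and 14.1 to 39.5 at E2C. Stx5a, with 1.33 to 19.2 TPM at 6 hpa, 6.65 to 124 at 14 hpa and 16.5 to 65.5 at E2C, overlapped between the stages. The SNARE gene Bet1 averaged 46.4 ± 8.8 TPM at 6 hpa, 135 ± 13.9 at 14 hpa and 131 ± 18.3 at E2C, and Copz1 34.0 ± 11.2 TPM at 6 hpa, 199 ± 148 at 14 hpa and 225 ± 94.2 at E2C (SD, n = 6). Others act in mitochondria. Mtfr1l, a regulator of mitochondrial fission, had 12.3 to 21.1 TPM at 6 hpa and 29.9 to 113 at the peak stages, without overlap, and its TE mean of 132 ± 33.4 was above its peak. Mff averaged 93.2 ± 25.8 TPM at 6 hpa, 299 ± 130 at 14 hpa and 351 ± 112 at E2C, and Ndufaf4, an assembly factor of complex I, 75.9 ± 25.4 TPM at 6 hpa, 234 ± 16.0 at 14 hpa and 196 ± 16.6 at E2C (SD, n = 6). Of the core histone genes, Hist1h4c held 4.71 to 12.7 TPM at 6 hpa, 18.2 to 31.4 at 14 hpa, 22.6 to 38.7 at E2C and 21.3 to 27.0 at L2C, so its L2C libraries overlapped those of the peak stages. At 8C it held 0.151 to 2.84 TPM. The other histone members, Hist2h3c1, Hist2h3c2 and Hist2h2aa1, lie in 1 cluster and are near-identical to other copies, which makes their single values uncertain.

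Max is the gene of this list that the study itself studied. It encodes the partner with which MYC and MXD proteins bind the E-box CACGTG. Its 6 hpa libraries ran from 12.4 to 21.7 TPM (median 14.3), 14 hpa from 34.1 to 73.2 (median 58.3), and E2C from 46.8 to 84.3 (median 70.2), with no overlap between 6 hpa and the peak stages. It was 30.6 ± 18.4 TPM at L2C, 4.82 ± 3.94 at 8C, 12.5 ± 6.83 at morula, 9.69 ± 11.4 in ICM and 18.6 ± 6.79 in TE (SD, n = 6 each), and 7.77 ± 3.67 in CCs (SD, n = 3). The order at 8C, morula and ICM is within the spread of the libraries. Max changed by -2.52 on the log2(TPM + 1) scale from L2C to 8C (SE 0.47), and Mcrs1, no member, rose by 3.01 at the same step (SE 0.72, limma adjusted p = 3.2e-04).

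Eif4e1b encodes an oocyte form of the cap-binding protein eIF4E. It ran from 20.8 to 40.6 TPM at 6 hpa (median 28.0), from 57.0 to 214 at 14 hpa (median 119) and from 35.1 to 172 at E2C (median 100.6). E2C replicate 1 (35.1 TPM) lay within the 6 hpa range. The gene was listed at 0 in every 8C library after 19.5 ± 13.3 TPM at L2C (SD, n = 6), a fall of 3.96 on the log2(TPM + 1) scale (SE 0.38). Cpsf4l, a paralog of a subunit of the factor that recognizes polyadenylation signals, ran from 4.39 to 19.2 TPM at 6 hpa, from 17.1 to 121 at 14 hpa and from 5.46 to 59.2 at E2C, with replicates 4 to 6 (100, 83.1 and 121 TPM) above replicates 1 to 3 (25.2, 17.1 and 33.3 TPM) at 14 hpa.

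**Figure D4:**
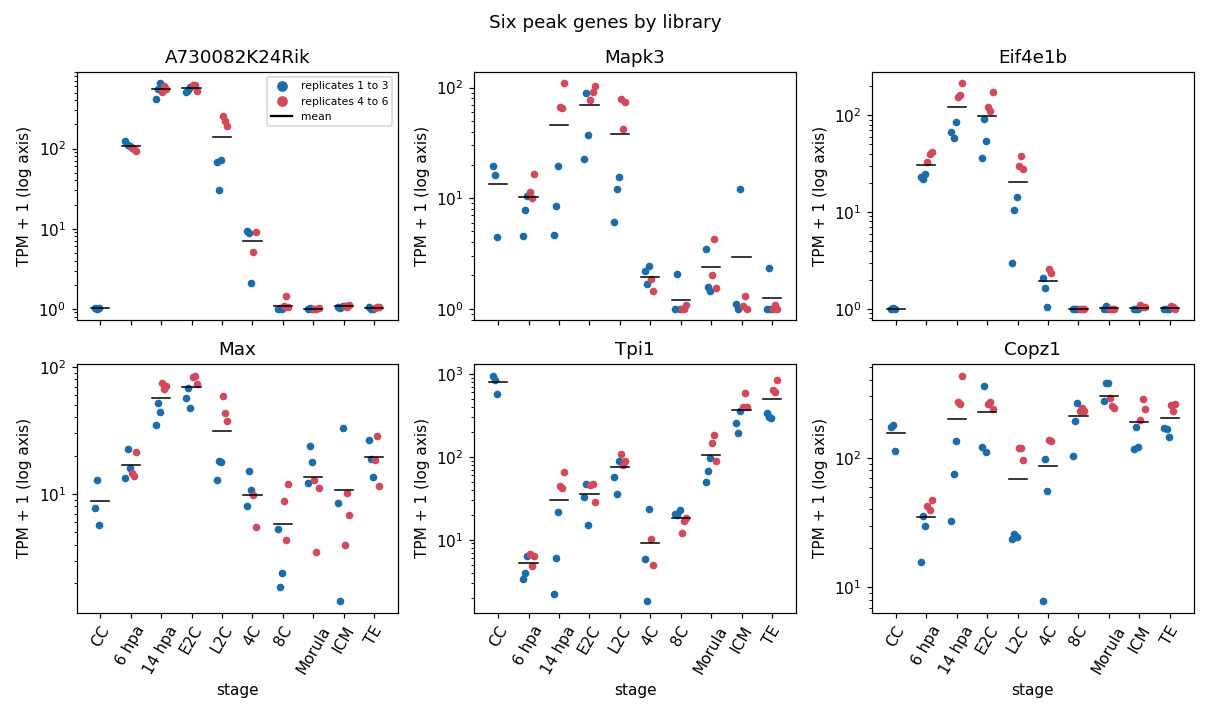
TPM + 1 on a log axis in each library by stage for A730082K24Rik, Mapk3, Eif4e1b, Max, Tpi1 and Copz1, with replicates 1 to 3 and 4 to 6 in different colors and the stage mean as a black line. A730082K24Rik, Mapk3 and Eif4e1b stay near the bottom of the axis from 8C on, apart from 1 ICM library of Mapk3, while Tpi1 and Copz1 are high again in ICM and TE, at 366 and 188 TPM in the ICM mean.

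Stored mRNAs that gain a poly(A) tail in the oocyte often carry a cytoplasmic polyadenylation element (CPE, TTTTAT or TTTTAAT in DNA letters) close to the polyadenylation signal (AATAAA or ATTAAA). These letters were searched on the transcript strand in the last 120 bases of the longest GENCODE vM21 transcript of each gene. A CPE was found in 14 of 97 members (14.4%), in 641 of 2641 other genes that reached 20 TPM at both stages (24.3%) and in 2363 of 11766 tested genes (20.1%). With the last 60 or 200 bases the shares were 11.3% and 21.6% of the members against 13.9% and 32.3% of the other genes. Over all annotated transcripts of a gene they were 25.8% and 48.2%. A signal in the last 50 bases stood in 53.6% of members, 72.9% of the other genes and 72.2% of tested genes, and the median transcript length was 2131, 2700 and 2998 bases. Both a CPE in the last 120 bases and this signal stood in 7.22%, 20.1% and 15.9%. The longest transcript need not be the one present in the embryo, its end can differ from the gene end in the authors' tables, as for Cdk20, and a missing match says only that the letters are not in that window. The 5 stretches below, read from GENCODE vM21 transcripts on mm10, show the 30 bases around the element in A730082K24Rik, in Cdk20 and Max, which rank among the 20 first members, in Cox6a2, a respiratory chain subunit, and in Ada, adenosine deaminase. The capitals mark the CPE and, in Max, also the signal AATAAA, which there comes before the CPE. A730082K24Rik, Cox6a2 and Ada had no signal in the last 50 bases. All but the noncoding A730082K24Rik lie in an annotated 3′ UTR in the last exon, and the element ends 70, 49, 7, 46 and 29 bases before the 3′ end, in the order printed. The stretches are at chr7:114983873-114983902 on the plus strand, chr13:64441707-64441736 on the plus strand, and on the minus strand chr12:76937270-76937299, chr7:128205469-128205498 and chr2:163726601-163726630.
A730082K24Rik: tgtatgtagtaTTTTAATatttatacagtt
Cdk20: tggagggctgtgTTTTATtgcagtgccaaa
Max: aatataAATAAAaacttaTTTTATccttgt
Cox6a2: cctgcattttcaTTTTATtttttaaaaatt
Ada: ctttggatttatTTTTATtatttttaaata

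From L2C to 8C 76 of the 100 members fell and 2 rose, where 32.8% of the 11867 tested genes fell and 23.2% rose (limma). The L2C and 8C libraries took no part in the choice, but the rule required a low level at 4C, the stage between them, so that a fall was largely built in and the counts are a description. The median change of the members was -2.54 on the log2(TPM + 1) scale and that of all tested genes -0.23. With TPM rescaled over the reference genes both medians moved, to -3.26 and -0.80, and after quantile normalization to -2.15 and 0.11. The largest falls after A730082K24Rik were of Gm17751 (-6.43, SE 0.31), AA536875 (-5.82, SE 0.27), the nuclear receptor cofactor Pnrc1 (-5.71, SE 0.40) and the G protein subunit Gng3 (-5.71, SE 0.38). Gm17751 ran from 54.4 to 206 TPM at L2C and was at most 2.60 at 8C. Pnrc1 ran from 39.4 to 77.2 TPM at L2C and was at most 0.402 at 8C. The 2 genes that rose were Copz1 and 1110012L19Rik. Copz1, a subunit of the COPI coat of Golgi vesicles, was 22.6, 25.0, 23.6, 118, 118 and 94.6 TPM at L2C and 102, 191, 266, 230, 242 and 227 at 8C (log2 change 1.95, SE 0.50, limma adjusted p = 7.48e-04), and its L2C replicates 4 to 6 overlapped the lowest 8C library. 1110012L19Rik was at 24.6 ± 22.0 and 49.0 ± 18.4 TPM (SD, n = 6; log2 change 1.495, SE 0.62, limma adjusted p = 0.0331), with overlapping libraries. Among the members that did not pass the test, Cript, a binder of synaptic PDZ proteins, kept 310 ± 41.1 TPM at 8C, and the mitochondrial ribosomal gene Mrpl48, the Golgi syntaxin Stx5a and the replication factor Gins2 changed by 0.45, 0.13 and -0.19 on the log2 scale.

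Members with the lowest later levels were 22 genes that averaged below 1 TPM at 8C, morula, ICM and TE alike, which 250 of the 2758 genes (9.06%) also did. They include Eif4e1b, Cox6a2, Lhx8, an oocyte transcription factor, Nr2e1, an orphan nuclear receptor, the kinesin Kif17, Serpinb12, Clec12a, Cd200, Sptssb, C8b, the olfactory receptor gene Olfr976 and the rest are mostly unnamed transcripts such as A730082K24Rik. Serpinb12 had 42.7 ± 21.3 TPM at 14 hpa and 0 in every 8C, morula and ICM library. In CCs 19 of the 22 were below 1 TPM too, the exceptions being Fam229b, Gm5868 and Cd200 (195 of 2758 genes, 7.07%). Mael, a piRNA pathway gene of the germline, fell from 17.1 ± 11.2 TPM at L2C to 0.174 ± 0.336 at 8C (SD, n = 6).

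Other members returned to high levels. The mean in ICM or TE was above the smaller of the 14 hpa and E2C means for 11 members and above both for 5, which were Tpi1, Capzb, Mtfr1l, Gins2 and Sh3bgrl3. These counts were not made over the other genes. Tpi1, the glycolytic triosephosphate isomerase, ran from 2.31 to 5.77 TPM at 6 hpa, from 1.22 to 64.8 at 14 hpa (median 30.8), and from 14.0 to 46.5 at E2C (median 38.0). Its later levels were 75.3 ± 26.3 TPM at L2C, 17.3 ± 3.76 at 8C, 104 ± 50.2 at morula, 366 ± 138 in ICM and 502 ± 227 in TE (SD, n = 6 each), mostly above the peak, and it held 793 ± 197 in CCs (SD, n = 3), the highest member there. Next in CCs were Sh3bgrl3 (311 ± 30.01 TPM) and Cript (250 ± 74.1 TPM; SD, n = 3). Cumulus markers summed to between 1203 and 1461 TPM in CCs, although Has2 and Amh were below 1 TPM there, and to between 0.159 and 16.8 TPM from 6 hpa to 4C. At L2C the highest members were Cript (475 ± 146 TPM), Oser1 (335 ± 163) and Mea1 (241 ± 182; SD, n = 6), and at 8C Oser1 held 326 ± 84.1. By the mean over ICM and TE together, the highest members in the fertilized control blastocysts were Rbpms2, an RNA-binding protein, with 289 and 904.9 TPM in ICM and 67.7 and 144 in TE, Capzb, which caps actin filaments, with 452 and 283 TPM in ICM and 557 and 572 in TE, and Copz1 with 304 and 381 TPM in ICM and 324.5 and 337 in TE.

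From 8C to morula 9 members rose and 2 fell, where 8.74% and 3.48% of tested genes did, and the median change of the members and of all genes was 0.20 in both. All 100 members entered this test through their high earlier levels, and only 66 averaged at least 1 TPM over 8C and morula. Among the genes at 1 TPM or more over these 2 stages, a limit set after seeing the data, 13.6% of these members rose and 3.03% fell, against 10.9% and 4.35% of 9496 genes, with median changes of 0.61 and 0.30. Capzb rose most, from between 11.4 and 36.6 TPM to between 104 and 199 TPM with no overlap (log2 change 2.65, SE 0.65, limma adjusted p = 0.00339). Tpi1 (2.41, SE 0.51), the calcineurin subunit Ppp3r1 (2.17, SE 0.36), 3110045C21Rik (1.84, SE 0.64) and Derl3 (1.82, SE 0.63) followed, and the KRAB zinc finger gene Zfp932 (-2.05, SE 0.41) and BB557941 (-1.77, SE 0.34) fell. Between ICM and TE of SCNT blastocysts no member was higher in ICM and 5 were lower, where 1.47% and 3.87% of genes were, and 17 members (17.0%) had an unadjusted p under 0.05, against 18.2% of genes. The 5 were 4930558C23Rik (-2.41, SE 0.68), Asb8 (-1.90, SE 0.54), the endosomal GTPase Rab21 (-1.50, SE 0.45), the galactosyltransferase B4galt4 (-1.41, SE 0.41) and Tpgs2 (-1.20, SE 0.38). 4930558C23Rik was 0, 0, 0, 27.6, 15.4 and 25.4 TPM in ICM and 23.7, 28.8, 27.6, 9.41, 42.3 and 28.4 in TE, so its difference came from the ICM replicates 1 to 3. Without replicate 2 there was 1 call. In replicates 1 to 3 alone 2 members were higher in ICM and 6 lower, and in replicates 4 to 6 alone 4 were higher and 3 lower, where all genes gave 137 and 837 calls and 498 and 414, so the direction of the counts differed between the sets. Summed TE markers reached 1931 to 8383 TPM in the ICM libraries against 5128 to 16059 in TE, whose part in the counts was not tested. Genes at 1 TPM or more numbered 6771, 6177 and 6228 in ICM replicates 1 to 3. In ICM replicates 4 to 6 there were 9011 to 10032 such genes and in TE 8401 to 9812. The part of this difference in the calls was not tested either.

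**Figure D5:**
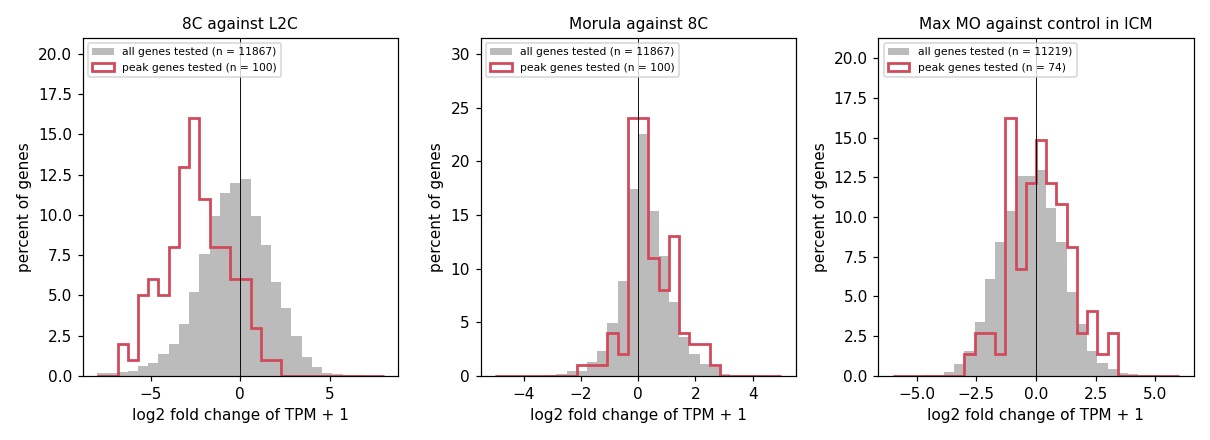
Share of genes (y axis, percent) by log2 fold change of TPM + 1 (x axis) for 8C against L2C, morula against 8C and Max MO against control in ICM, with all tested genes filled and the peak genes as a line, and values beyond the axis counted in the end bins. The peak genes lie to the left of all genes at 8C, with medians of -2.54 and -0.23, and near them at morula, with a median of 0.20 for both, low genes included.

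The list was then set beside genes with known roles at this stage, from lists of the storage and polyadenylation machinery, mRNA decay, 2-cell genes and others. From 6 to 14 hpa, 6.14% of tested genes rose and 4.94% fell (limma), and 69 of the members rose, which the rule fixed. The calls of the members Eif4e1b, Cpsf4l and Max below come from the same choice and are no support. Of 16 genes known as dormant maternal mRNAs none rose and Dcp1a, a decapping factor, fell (113.5 to 36.2 TPM, log2 change -1.73), a call that was lost without any 1 of the 6 replicates. None of the 16 is a member. Of 36 tested genes of polyadenylation and mRNA storage, 3 rose, of which Eif4e1b and Cpsf4l are members, and the third was Eif4e itself (220 to 570 TPM, log2 change 1.36, SE 0.22), and 3 fell, led by the storage factor Zar1 (272.5 to 34.0 TPM, log2 change -3.13, SE 0.39). Of 29 genes of deadenylation and decay, Tob1, which recruits deadenylases, rose (1.59 to 11.8 TPM, log2 change 2.02), and Cnot8, a deadenylase, and Dcp1a fell. Of the 6 fits without 1 replicate, Tob1 was called only in that without replicate 5, Cnot8 lost its call without replicate 2, 3, 4 or 5, and without replicate 3 or 4 the list had no call. Of 25 tested 2-cell genes 4 rose, which were Zfp352 (0.350 to 15.0 TPM, log2 change 3.56, SE 0.59), Usp17lc (2.09), Duxbl1 (1.79) and Usp17ld (1.161), and Obox2 fell (4886 to 1345 TPM, log2 change -1.86). The calls of Zfp352, Usp17lc and Obox2 were kept without any 1 replicate, while the 4 rises were 2 without replicate 2, 4, 5 or 6, where Duxbl1 and Usp17ld were lost, and 1 in replicates 1 to 3 alone. With a mean of at least 5 TPM required, 14 of these genes were tested, and Usp17lc and Usp17ld were not called. The study describes the Usp17l genes as fully repressed in SCNT embryos, against fertilized early 2-cell embryos, which are not among these libraries. No member is a listed 2-cell gene. Of 40 chromatin regulators, Max was the 1 that rose, and Trim28 (-2.98), Tet3 (-2.93) and Kdm6b (-2.16) fell. Cell cycle genes gave 2 rises, with Cdk1 (2.53) and Cdk2 (1.32, not called without replicate 3, 4, 5 or 6), and 3 falls among 48, nucleolar genes 2 and 3 among 39, and translation factors 4 and 2 among 31, with Paip2 (2.71) and Eef1a1 (2.59) the largest rises.

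Max and Mcrs1 were also knocked down in fertilized embryos, and 74 of the 100 members were expressed enough in blastocysts to be tested, which leaves out members lost by then. Reference genes held 85.5% to 87.0% of TPM in the ICM controls and 93.6% to 94.4% in the MO ICM groups. The TE markers Cdx2, Krt8, Krt18, Gata3 and Eomes summed to 15975 TPM in ICM control replicate 1 and 354 TPM in replicate 2, against 2718 and 5824 with Max MO, 11551 and 8041 with Mcrs1 MO, and 15095 to 21139 in the 6 TE libraries. Their part in the counts was not tested. Mcrs1 mRNA was lower with its MO in ICM (281.7 to 80.1 TPM, log2 change -1.80, SE 0.215, limma adjusted p = 0.00333) and in TE (256 to 43.3 TPM, -2.53, limma adjusted p = 8.68e-04). Max was 38.0 and 8.42 TPM in the ICM controls and 6.82 and 0.443 with Max MO (-2.51, SE 0.80, limma adjusted p = 0.0397), and 34.5 and 28.5 TPM in the TE controls and 16.3 and 8.68 with Max MO (-1.32, SE 0.80, limma adjusted p = 0.390).

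With Max MO in ICM 13 of the 74 members were higher and 8 lower, where 8.65% and 15.1% of tested genes were, and the median change was 0.24 for members and -0.21 for all genes. The 8 include Max, the target of the MO, and the 74 include Gm6644 and Akr1b3, which are not separate observations. The largest rises were of E330011O21Rik (3.07, SE 0.44), 9230110C19Rik (3.01, SE 0.60), B4galt4 (2.85, SE 0.68), the small GTPase Rras2 (2.35, SE 0.64) and Tpi1 (2.20, SE 0.58), each with both MO libraries above both controls. E330011O21Rik was 1.26 and 1.29 TPM in the controls and 24.4 and 13.4 with the MO. Tpi1 was 180 and 31.3 TPM against 287 and 428. The largest falls were of Fam160a1 (-2.63, SE 0.72), Net1 (-2.54, SE 0.44), Max, Gng3 (-2.07, SE 0.60) and Ppp3r1 (-2.02, SE 0.35). Net1, an exchange factor of the GTPase RhoA, was 32.8 and 60.03 TPM in the controls and 5.07 and 9.04 with the MO, without overlap. With only 1 of the Max MO libraries kept the counts dropped for the members and for all genes. The median change of the members was then -0.03 without replicate 1 and 0.095 without replicate 2, against -0.20 for all genes in both fits. Without control replicate 1, the one with the high TE markers, the medians were 0.18 and -0.12. With the ICM fitted without the TE libraries 3 members were higher and 2 lower of 72, where 507 and 564 of 11365 genes were. In TE no member passed the test with Max MO, where 1.04% of genes were higher and 1.45% lower, and 13 members (17.6%) had an unadjusted p under 0.05, against 20.4% of genes. Net1 was 42.8 and 41.3 TPM there against 13.5 and 10.97 (-1.71, SE 0.44, limma adjusted p = 0.0621).

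With Mcrs1 MO in ICM 6 members were higher and 1 was lower, where 4.88% and 5.21% of genes were. They were B4galt4 (3.77), E330011O21Rik (3.10), 9230110C19Rik (2.98), Rras2 (2.60), Tpi1 (2.23) and the mitochondrial fission factor Mff (1.31), with Gng3 lower (-2.21). The same control libraries serve both MOs, so these changes are not independent of those with Max MO. B4galt4 was at 0 in both controls and at 3.101 and 11.7 TPM with Max MO and 19.04 and 8.25 with Mcrs1 MO. Without control replicate 1 the counts rose, and with only 1 of the Mcrs1 MO libraries kept they fell, for the members and for all genes alike. The median change of the members was 0.17 without control replicate 1, 0.17 without Mcrs1 MO replicate 1 and 0.18 without Mcrs1 MO replicate 2. For all genes it was 0.007, -0.02 and -0.04. In TE 1 member was higher and 2 were lower with Mcrs1 MO, where 1.77% and 3.31% of genes were. Mael was 6.04 and 6.51 TPM in the TE controls and 85.7 and 54.2 with the MO (3.25, SE 0.72, limma adjusted p = 0.0284), and Fbxo46 (-1.97, SE 0.49) and Klhdc3 (-1.11, SE 0.29) were lower. None of these 3 calls held when either TE control library or either Mcrs1 MO library of TE was left out. The difference between the response in ICM and in TE, as an interaction term chosen after seeing the data, called 0 members for either MO, and 0% of all tested genes. At an unadjusted p under 0.05 there were 15 members (20.3%) for Max MO, against 13.1% of all genes, and 11 (14.9%) for Mcrs1 MO, against 8.66%, and the lowest limma adjusted p values were 0.203 and 0.372, both for E330011O21Rik.

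Max and its partners bind the E-box CACGTG, and the promoters of the members were therefore read from RefSeq (GRCm38.p6, 250 bases before to 50 after each transcript start, 83 of 100 members matched). CACGTG, which reads the same on both strands, stood in at least 1 listed promoter of 14 of the 83 (16.9%), against 11.4% of the other genes that reached 20 TPM at both stages, 11.5% of tested genes and 8.09% of all genes in the table. CCAAT, searched on both strands, stood in 44.6%, 45.6%, 44.5% and 41.1%, TATAAA in 9.64%, 8.77%, 9.65% and 15.7%, and GGATTA, the core bound by OBOX-type homeodomains, in 8.43%, 6.75%, 7.25% and 8.14%. The promoters listed numbered 114 for the 83 members, 2683 for 2177 of the other genes and 11774 for 9418 tested genes. Members thus had more promoters per gene, and the shares were not adjusted for this. Among the members called with Max MO in ICM 3 of 17 with a promoter held CACGTG (Max, Net1 and Rdh11, of which Rdh11 was higher), and 10 of 47 among those not called. Among all tested genes the shares were 12.1% of those called and 12.1% of those not called. The promoter of Rdh11, which was higher and held 2 E-boxes, is not shown. Max is the target of the MO, and the other listed promoter of Net1 held no CACGTG. The promoters of Max and Net1, 2 members that were lower, are shown with the E-box in capitals, at chr12:76962199-76962498 and chr13:3893532-3893831, both on the minus strand. The E-box begins 3 bases before the start in Max and 21 before it in Net1, where this is a start inside the gene as the tables give it.
Max: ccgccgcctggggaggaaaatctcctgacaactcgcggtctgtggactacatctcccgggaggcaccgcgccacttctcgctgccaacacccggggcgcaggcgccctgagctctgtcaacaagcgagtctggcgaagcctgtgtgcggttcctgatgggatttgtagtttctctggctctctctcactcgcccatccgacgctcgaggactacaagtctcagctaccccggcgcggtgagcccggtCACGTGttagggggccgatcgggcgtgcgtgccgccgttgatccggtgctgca
Net1: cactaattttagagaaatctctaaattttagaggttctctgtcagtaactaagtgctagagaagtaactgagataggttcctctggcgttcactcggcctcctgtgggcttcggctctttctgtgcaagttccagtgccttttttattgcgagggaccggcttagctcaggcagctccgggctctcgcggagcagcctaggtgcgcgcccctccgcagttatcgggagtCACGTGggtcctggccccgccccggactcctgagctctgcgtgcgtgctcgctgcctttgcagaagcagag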

How the data were processed

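Smart-seq2 libraries were grouped by their labels, with 3 of CCs, 53 of SCNT embryos and 12 of fertilized embryos in the MO experiment. Where 1 table of 4C was named 6 and labelled 5, the labelled number was kept. The authors used cutadapt 1.16 for trimming, HISAT2 for alignment to mm10, StringTie for quantification and DESeq2 for their own comparisons. The authors deposited 1 gene table per library with coverage, FPKM and TPM. The TPM column holds assembled loci, which sum to 1000000, and reference genes on the same scale, both computed by StringTie before deposition. This deposited TPM column was handled as a score, since both sets together exceed the total of TPM. The deposited FPKM and coverage signal were used only for their ratio, the number of aligned gigabases. The tables hold no counts, so no count test, counting interval or floor was possible.

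TPM was summed per gene name, and log2(TPM + 1) was fitted with limma 3.58.1 in R 4.3.3 (lmFit, then eBayes with trend) for genes averaging at least 1 TPM. The SCNT fit held 53 libraries in 9 stages and 11867 genes and the MO fit 12 libraries in 6 groups and 11219 genes. Calls needed a Benjamini-Hochberg adjusted p under 0.05 over all genes and at least a 2-fold change. Fold changes on this scale understate changes of low values. The fit was tested on simulated data. Tables and figures were made with Python 3.11.15, numpy 2.4.6, pandas 2.3.3 and matplotlib 3.10.9.

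The members and the gene lists were chosen with earlier results of these data known. Genes are named in the text if they are among the 20 first members, on a gene list, among the 5 largest called changes per direction and comparison, at the edge of the list, among the 3 highest members in CCs, L2C or fertilized control blastocysts, a target or a marker. Further members were named as examples after their values were seen. Same-numbered libraries of ICM and TE, and of 6 and 14 hpa, deviated from their group means together (r = 0.128 to 0.287 and 0.139 to 0.392 over 12191 genes), while those of 8C and L2C (0.00510 to 0.119), morula and 8C (-0.225 to 0.175) and the MO groups (-0.0363 to 0.0683) did not in every pair. The alternatives were a pseudocount of 0.1, no filter, at least 5 TPM, TPM rescaled over reference genes, quantile normalization, the largest row of a name, a replicate block, single replicates left out, each set of 3 replicates alone and each lineage fitted alone. Leaving out held-out replicates, the listed genes under these settings and the interaction term were added after seeing the data.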

Additional observations from a re-analysis of the deposited data

Results flagged for a closer look

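Among the 20 first members, Eif4e1b and Cpsf4l, 168 groups of 5 or 6 SCNT libraries were searched for 1 library far from the rest, by the gap to its neighbor over the range of the group. In 17 groups the gap passed the 95% limit, and chance flags about 1 in 20 groups. At 6 hpa, Derl3 held 0.813 TPM in replicate 1, with the next library at 4.60. AW495222 held 15.4 TPM in replicate 4, with the next at 8.41, and Rab3b held 9.14 TPM in replicate 5, with the next at 7.17. At L2C, Speer5-ps1 (22.3 TPM, next 6.16) and Stx5a (63.6 TPM, next 22.2) were both high in replicate 4. At 4C, 4930558C23Rik held 9.10 TPM in replicate 2 (next 0.882), Oas1f 4.44 in replicate 3 (next 0.541) and Rab3b 5.32 in replicate 1 (next 1.42). At 8C, Derl3 held 5.92 TPM in replicate 5 (next 2.16) and Cpsf4l 3.12 in replicate 4 (next 1.09). At morula, Dnajc14 (18.0 TPM, next 8.66) and Net1 (21.6 TPM, next 5.77) were both high in replicate 2. In ICM, Mapk3 held 11.1 TPM in replicate 3 (next 0.305) and Max 32.1 TPM in the same replicate (next 9.13), and Oas1f held 7.79 TPM in replicate 4 (next 2.01). In TE, Cdk20 held 7.70 TPM in replicate 2 (next 0.126) and Stxbp6 9.85 TPM in replicate 4 (next 2.74).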

How the results depend on the processing

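Of the counts given, the 76 falls from L2C to 8C moved by less than 1.5 times under all 15 alternatives (51 to 84; 73 to 80 with single replicates left out), and the 63 peak calls in replicates 4 to 6 under all 10 (44 to 68; 48 to 51). The replicate block moved no count of calls by over 1.5 times. Of the 54 results of single genes, 26 kept their side of the threshold under every alternative run. None changed sign where the main or the alternative fit called it. Other counts moved, and the cause was not tested. In the MO fits the calls over all tested genes moved as well. The 2 rises from L2C to 8C were 1 without a filter, 1 with rescaled TPM, 1 in replicates 4 to 6 alone, 3 in replicates 1 to 3 alone and 1 to 2 with single replicates left out. The 11 calls at morula were 21 in replicates 4 to 6 alone and 7 to 12 with replicates left out, 7 without replicate 3 or 6. The 5 calls between ICM and TE were 1 without a filter, 1 after quantile normalization, 8 in replicates 1 to 3 alone and 1 to 4 with replicates left out. For Max MO in ICM the 21 calls were 13 without a filter, 5 with the lineage alone and 8 to 21 with libraries left out, and in TE the 0 calls were 2 with at least 5 TPM, 4 with the lineage alone and 0 to 2 with libraries left out. For Mcrs1 MO in ICM the 7 calls were 0 with the lineage alone and 1 to 18 with libraries left out, and in TE the 3 were 0 without a filter, 1 after quantile normalization, 7 with the lineage alone and 0 to 6 with libraries left out. The 7 peak calls in replicates 1 to 3 were 2 with a pseudocount of 0.1, 14 after quantile normalization and 0 to 1 with replicates left out. The 33 listed genes called from 6 to 14 hpa, a count in which 3 members take part, were 39 with the replicate block, 60 in replicates 4 to 6 alone and 25 to 33 with replicates left out. Of the 100 members, 64 were kept with a limit of 10 TPM, 52 with 50 TPM and 86 to 93 with replicates left out. The 14 members with a CPE were 25 over all transcripts of a gene.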
